A study of Mus musculus with 12 samples.

Results

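The comparison set RNA bound to tagged ribosomes in the spinal cord of Snap25 bacTRAP mice (TRAP_Snap25, 3 libraries) against RNA of the same line taken before the pulldown (PreIP_Snap25, the input, 3 libraries). These 6 of the 12 libraries of the study were chosen by the group in their titles, and every gene of the count table was used. Both groups carried the transgene Tg(Snap25-EGFP/Rpl10a)JD362Jdd, were at post natal day 21 and came from spinal cord, so the inputs carried the tag too. The other 6 libraries are a pulldown and an input, 3 each, of Tg(Chat-EGFP/Rpl10a)DW167Htz mice of that age and tissue. They entered the estimate of the spread and a test of whether the change from input to pulldown differed between the lines.

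TRAP, or translating ribosome affinity purification, uses a transgene in which the regulatory sequence of a chosen gene drives ribosomal protein L10a fused to EGFP. Antibodies against EGFP then pull tagged ribosomes, and the RNA on them, out of a tissue homogenate. Snap25 encodes a protein of the SNARE complex that fuses synaptic vesicles with the membrane, and neurons express it broadly. The line is therefore used to reach RNA of neurons in general, within the limit that a bacterial artificial chromosome may not copy the gene's own pattern in every cell. The Chat line uses the gene for the enzyme that makes acetylcholine, which in the spinal cord marks motor neurons and a few interneuron types.

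The 3 input libraries held between 17686768 and 20336902 counts on genes and the 3 pulldown libraries between 10149346 and 14481604. Of 40912 gene IDs, 15905 had enough counts to be tested. Levels are given as CPM, which are counts relative to library size, scaled with edgeR's TMM factors. Libraries are always listed in the order replicate 1, 2, 3, and n = 3 per group. The pulldown libraries varied more than the inputs, with a biological coefficient of variation over genes of 0.492 against 0.286. Libraries of a group were distinct, with rank correlations over genes of 0.965 to 0.974 among inputs and 0.929 to 0.958 among pulldowns. Replicates are numbered in the labels, but no label ties them to different animals, and every p-value below refers to the spread among these libraries, which may be technical. Reads on Yam1, which held from 1.34% to 17.0% of counts, had overlapping ranges in the groups, and the median log2 fold change over all tested genes was -0.00.

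Snap25 itself was abundant in every library. Its level was 9066, 10580 and 8807 CPM in the inputs and 16530, 14980 and 15570 CPM in the pulldowns, so the groups did not overlap. The rise of 1.66-fold did not pass the threshold (log2 fold change 0.73 ± 0.260 SE, 3 libraries a side, edgeR adjusted p = 0.0544, threshold 0.05). Rpl10a, whose protein carries the tag, stood at 6.10, 4.14 and 8.80 CPM in the inputs and 5.14, 4.13 and 7.93 CPM in the pulldowns, and these ranges overlapped. Counts on Rpl10a may include the transgene's RNA, which was not separated here, and reads of ribosomal protein genes can be shared with processed copies.

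Across the table, 1541 genes were higher in the pulldown (9.69% of 15905) and 2017 were lower (12.7%), by edgeR's quasi-likelihood test at an adjusted p under 0.05. Falls were larger than rises. Only 28 of the rises exceeded 4-fold, while 1082 of the falls did, and 489 exceeded 8-fold. The 3 pulldown libraries all lay above the 3 inputs for 2644 genes (16.6%) and all below them for 3399 (21.4%). The input replicates weighed on the number of rises, which came to 739 and 675 with PreIP_Snap25 replicate 1 or 2 left out and 950 with TRAP_Snap25 replicate 2 left out. The falls numbered 1298 without PreIP_Snap25 replicate 2. Every called gene named from here on kept its call without each of the 6 libraries in turn, unless the text says otherwise. Where 5 or fewer members of a list were called, most of those not named by rule are listed by log2 fold change alone, were named after their values were seen, and need not keep their call in such subsets. Where a list is said to have 0 members called in a direction, at most 2 of its members had an unadjusted p under 0.05 there, and DESeq2 and limma voom also called 0 in 39 of 42 such cases. The other 3 cases, with 1 call by each tool, were higher calls among nuclear long noncoding RNAs, chromatin modifiers and genes of the small ribosomal subunit.

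Among the 12 largest rises of genes at 5 CPM or more, 3 were nuclear genes of the respiratory chain (Uqcrb, Ndufa6 and Ndufb5) and 1, the peptide gene Uts2, was in the list of motor neuron markers. Tesc, which encodes the calcium-binding protein tescalcin, rose from 19.8, 10.1 and 21.4 CPM to 67.1, 75.1 and 65.5 CPM (log2 fold change 2.02 ± 0.261 SE, 3 libraries a side, edgeR adjusted p = 0.000152). The lowest pulldown lay well above the highest input. Necab3, a neuronal calcium-binding protein, rose from 110.1, 70.2 and 113 CPM to 419.6, 272 and 478 CPM (1.99 ± 0.282, adjusted p = 0.000279). Scx, a basic helix-loop-helix factor best known from tendon, was low but separate, at 3.19, 4.40 and 5.08 CPM before and 10.7, 21.1 and 15.1 CPM after the pulldown (1.89 ± 0.358, adjusted p = 0.00193). N4bp3, a Nedd4-binding protein, rose from 4.56, 3.30 and 4.43 CPM to 12.4, 12.6 and 22.1 CPM (1.93 ± 0.437, adjusted p = 0.00553). The near-identical neighbours Cxx1a and Cxx1b rose 3.57-fold and 3.58-fold, and since reads can be split between such copies their separate values are uncertain.

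**Figure D1:**
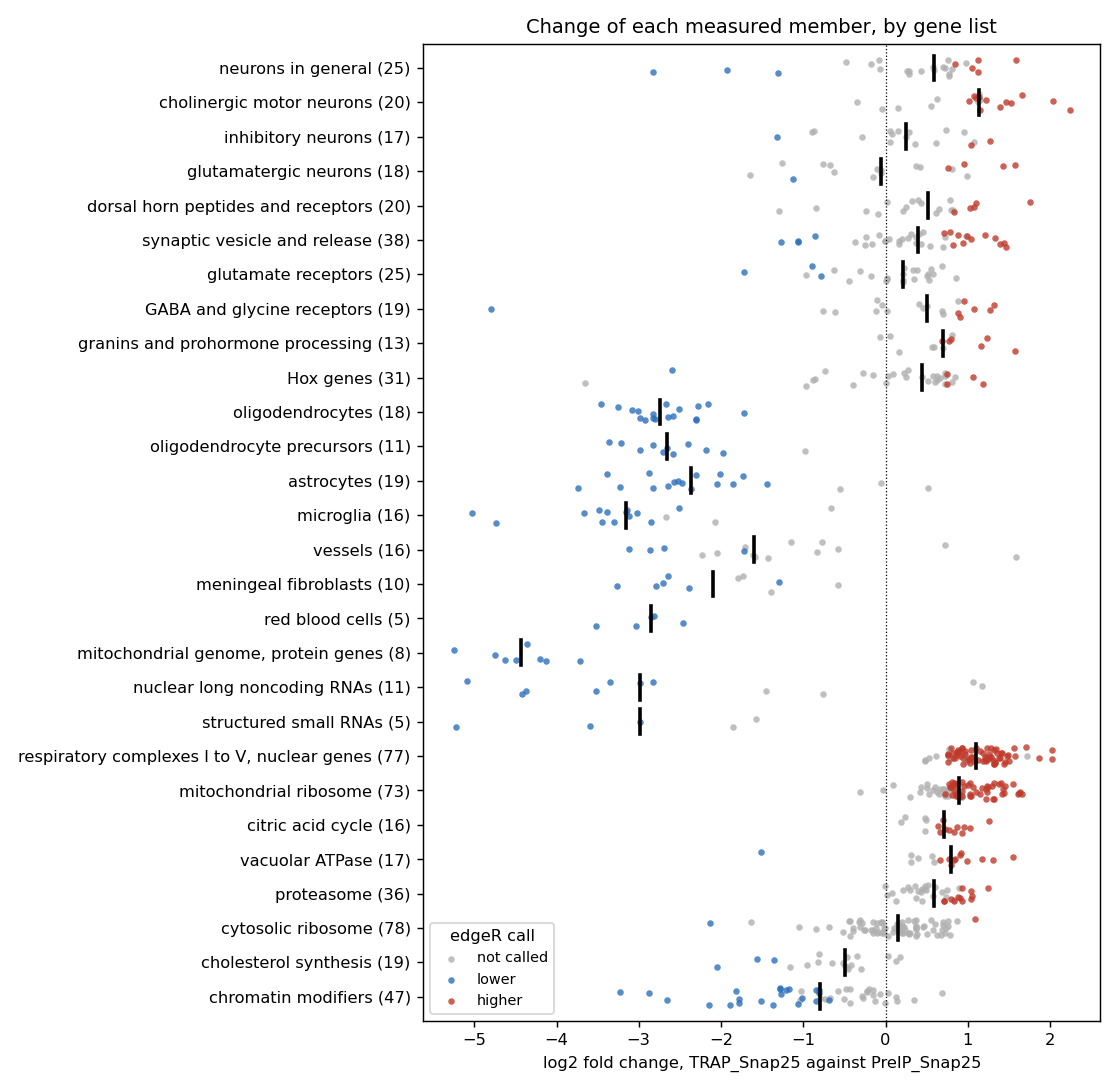
Log2 fold change of each member of 28 gene lists in the pulldown against the input of the Snap25 line. Each point is 1 gene, coloured by edgeR's call, and the black bar is the list's median. Respiratory complexes lie to the right of 0, most chromatin modifiers to the left, and the medians of the glial, red blood cell and mitochondrial genome lists far to the left.

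Nuclear genes of the respiratory chain rose together. The chain passes electrons from NADH and succinate to oxygen through complexes I to IV and pumps protons, and ATP synthase, complex V, uses the gradient to make ATP. All 77 listed nuclear genes of complexes I to V were tested, all 77 had a positive log2 fold change, and 64 passed the threshold as higher and 0 as lower, with a median of 1.10. For 58 of them the groups did not overlap. The median coding length of the 77 genes was 143 codons, and the part of coding length in their rise was not tested. Their summed level, as a percentage of the mean of the inputs, was 80.5, 80.1 and 139 in the inputs and 179, 223 and 220.3 in the pulldowns, so PreIP_Snap25 replicate 3 stood above the other inputs. The number called was 37 with PreIP_Snap25 replicate 1 or 2 left out and 73 with replicate 3 left out.

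The rise held in each complex. Complex I, the entry point for electrons from NADH, had 31 of 36 members called, with a median log2 fold change of 1.21. Its accessory subunit Ndufa6 went from 47.0, 59.5 and 113 CPM to 262, 467 and 164 CPM (log2 fold change 2.02 ± 0.399 SE, 3 libraries a side, edgeR adjusted p = 0.00245), and the highest input lay below the lowest pulldown. Ndufa1, a small membrane subunit, rose 2.97-fold, from 53.7, 45.6 and 97.6 CPM to 222, 226 and 137 CPM. In complex II, which also serves the citric acid cycle, 3 of 4 members were called (1 leaving out PreIP_Snap25 replicate 1 or 2), with Sdhc going from 157, 148 and 182 CPM to 301, 343 and 273 CPM (0.91 ± 0.229). The calls of the iron-sulphur subunit Sdhb and of the membrane anchor Sdhd did not hold in every subset. Adjusted p was 0.0761 with PreIP_Snap25 replicate 1 left out, 0.0714 with PreIP_Snap25 replicate 2 left out and 0.0715 with TRAP_Snap25 replicate 2 left out for Sdhb. It was 0.12 with PreIP_Snap25 replicate 1 left out, 0.129 with PreIP_Snap25 replicate 2 left out and 0.103 with TRAP_Snap25 replicate 3 left out for Sdhd.

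Complex III, which hands electrons to cytochrome c, had all 9 members called (4 leaving out PreIP_Snap25 replicate 1 or 2, 5 leaving out TRAP_Snap25 replicate 2). Uqcrfs1, its Rieske iron-sulphur protein, rose from 53.8, 56.5 and 93.6 CPM to 160.2, 215 and 154 CPM (1.38 ± 0.245, edgeR adjusted p = 0.00129). Complex IV, cytochrome c oxidase, had 10 of 12 called (4 leaving out PreIP_Snap25 replicate 1 or 2). Its subunits Cox5b and Cox7b rose 2.55-fold and 2.62-fold, with Cox7b at 157, 211 and 430.4 CPM in the inputs and 724, 840.1 and 525 CPM in the pulldowns. ATP synthase had 11 of 16 called (6 leaving out PreIP_Snap25 replicate 1 or 2, 7 leaving out TRAP_Snap25 replicate 2). Atp5g3, a gene for the ring that turns in the membrane, had the largest fold change of the called members and rose from 262, 296 and 517 CPM to 876, 1729 and 915 CPM (1.71 ± 0.308, adjusted p = 0.00138), and the groups did not overlap.

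The promoters of these genes were read for short sequences known from respiratory genes. RefSeq promoters on GRCm38.p6, from 250 bases before to 50 bases after the start site, were at hand for 63 of the 77 genes. The core of the NRF1 site, GCGCATGC on either strand, was present in 10 of the 63 (15.9%), against 2.80% of the 27025 genes in the promoter table. These shares differ in measure: any listed promoter of a gene counted for the 63, and only the first listed for the 27025. The core of the ETS site, CCGGAAG, was present in 16 (25.4%, against 9.12%), and that of the YY1 site, AAGATGGC, in 9 (14.3%, against 2.88%). None of these 3 motifs contains another. Tested genes with a promoter, counted on any listed one as the 63 were, held the cores at 5.55%, 17.7% and 4.80%. These shares lie above those of the whole table, but only 71.6% of tested genes had a promoter there, too few for a comparison. Of 73 mitochondrial ribosome genes, 64 had a promoter, and the 3 cores were in 10.9%, 32.8% and 18.8% of these. A match describes letters only. The stretches below are those of the respiratory genes that hold the NRF1 core and were called higher, the 3 with the largest rise among those whose stretch lies wholly before the start site. The core is in capitals, and each stretch reads 5′ to 3′ on the gene's strand.
Ndufa6 (chr15:82354337-82354404, minus strand, core 83 bases before the start and read on the opposite strand): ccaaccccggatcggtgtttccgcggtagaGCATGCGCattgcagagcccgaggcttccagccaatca
Atp5k (chr5:108434412-108434479, minus strand, core 50 bases before the start): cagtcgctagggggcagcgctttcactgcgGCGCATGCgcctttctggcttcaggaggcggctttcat
Ndufa11 (chr17:56717672-56717739, plus strand, core 60 bases before the start): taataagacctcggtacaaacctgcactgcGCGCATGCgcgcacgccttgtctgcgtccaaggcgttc
Atp5k, a subunit of the ATP synthase dimer, rose from 139.9, 162 and 292 CPM to 452, 693 and 439 CPM (1.42 ± 0.305), and Ndufa11, of complex I, from 102, 59.8 and 168 CPM to 249.9, 235 and 346 CPM (1.33 ± 0.300).

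Other nuclear genes for mitochondria moved in the same direction. Of 73 tested genes of the mitochondrial ribosome, which makes the proteins of the mitochondrial genome, 47 were higher and 0 lower, with a median log2 fold change of 0.90 (22 leaving out PreIP_Snap25 replicate 1, 20 leaving out PreIP_Snap25 replicate 2). Mrps12, a protein of the decoding centre, rose from 25.4, 17.0 and 41.8 CPM to 71.6, 91.8 and 103 CPM (1.66 ± 0.295, edgeR adjusted p = 0.00131), and Mrpl27 and Mrps24 rose 3.11-fold and 3.07-fold. Assembly factors, which build the complexes without staying in them, had 16 of 32 called higher (7 leaving out PreIP_Snap25 replicate 1, 6 leaving out PreIP_Snap25 replicate 2, 8 leaving out TRAP_Snap25 replicate 2). Among them Cox14 rose from 64.9, 65.97 and 142 CPM to 276, 359.9 and 192 CPM. Protein import had 14 of 27 called higher (3 leaving out PreIP_Snap25 replicate 1 or 2, 9 leaving out TRAP_Snap25 replicate 2). Tomm7, a small subunit of the outer membrane channel, rose 3.09-fold, from 33.1, 40.0 and 65.4 CPM to 124, 224 and 79.1 CPM. Tomm6 showed the largest fitted rise of the list, 3.35 ± 0.986, but lost its call without PreIP_Snap25 replicate 1, 2 or 3 or TRAP_Snap25 replicate 2, with adjusted p of 0.103 with PreIP_Snap25 replicate 1 left out, 0.0974 with PreIP_Snap25 replicate 2 left out, 0.0739 with PreIP_Snap25 replicate 3 left out and 0.1 with TRAP_Snap25 replicate 2 left out.

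Enzymes that feed the chain had lower medians. The list of the citric acid cycle also held cytosolic malate dehydrogenase and genes of pyruvate dehydrogenase. Of its 16 genes 11 were higher and 0 lower, with a median log2 fold change of 0.71 against 0.54 in glycolysis. Only 2 were higher leaving out PreIP_Snap25 replicate 1 or 2, 3 leaving out TRAP_Snap25 replicate 2 and 5 leaving out TRAP_Snap25 replicate 3. The cytosolic malate dehydrogenase Mdh1 rose from 458, 468 and 722 CPM to 1114, 1486 and 1335 CPM (1.26 ± 0.235, edgeR adjusted p = 0.00174). Its mitochondrial partner Mdh2 rose 1.94-fold, and this call was lost in 5 of the 6 subsets. Of 16 glycolytic genes 3 were higher (1 leaving out PreIP_Snap25 replicate 2, 5 leaving out PreIP_Snap25 replicate 3) and 0 lower (1 leaving out TRAP_Snap25 replicate 3), namely Aldoa, Pkm and Tpi1. Aldoa, the main muscle and neuron aldolase, went from 762, 499 and 764 CPM to 1071, 1594 and 1697 CPM (1.11 ± 0.253), while the calls of Pkm and Tpi1 were not kept in every subset, with adjusted p of 0.0577 with PreIP_Snap25 replicate 1 left out, 0.136 with PreIP_Snap25 replicate 2 left out and 0.111 with TRAP_Snap25 replicate 3 left out for Pkm and 0.0751 with PreIP_Snap25 replicate 2 left out and 0.0526 with TRAP_Snap25 replicate 2 left out for Tpi1.

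**Figure D2:**
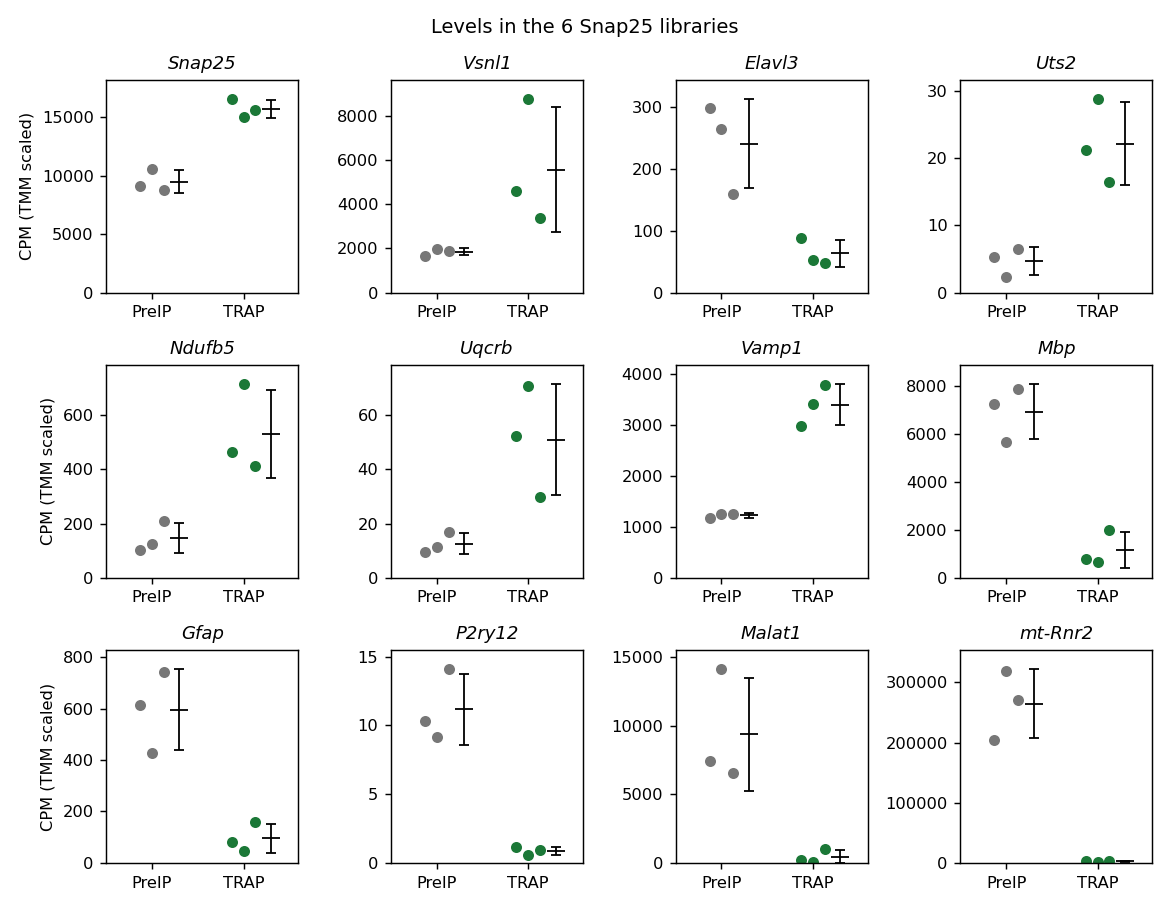
TMM-scaled CPM of 12 genes in the 3 input and 3 pulldown libraries of the Snap25 line. Points are libraries, and bars are the mean ± SD of 3, with the lower bar stopped at 0. The nuclear respiratory genes Ndufb5 and Uqcrb and the vesicle SNARE gene Vamp1 sit higher in the pulldown. Glial genes, the nuclear RNA and the mitochondrial ribosomal RNA sit lower there.

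RNA made inside mitochondria went the opposite way. Mitochondria transcribe and translate their own genome with their own ribosomes, which lack the tagged protein. All 8 tested protein genes of the mitochondrial genome and both ribosomal RNAs were lower, with a median log2 fold change of -4.43 for the protein genes. mt-Rnr1, the small ribosomal RNA, fell from 77770, 157400 and 109400 CPM to 2435, 753 and 1422 CPM, which is 74.7-fold. The complex I gene mt-Nd6 fell from 199, 294 and 324 CPM to 7.13, 1.95 and 12.9 CPM (-5.25 ± 0.762, edgeR adjusted p = 0.00032), in contrast to the nuclear genes of that complex. Both mitochondrial ribosomal RNAs together held 25.3%, 40.7% and 33.0% of input counts and 0.680%, 0.209% and 0.434% of pulldown counts.

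RNAs that stay in the nucleus or work outside translation were also low in the pulldown. Of 11 tested nuclear long noncoding RNAs, 7 were lower and 0 higher (1 leaving out PreIP_Snap25 replicate 3 or TRAP_Snap25 replicate 3). Miat fell from 82.3, 264 and 18.2 CPM to 3.09, 1.005 and 13.6 CPM (-4.42 ± 0.851) and Neat1, which builds paraspeckles, from 82.1, 143 and 34.5 CPM to 5.22, 4.02 and 13.7 CPM (-3.52 ± 0.640). The inputs themselves differed widely here, and their summed level of this list, as a percentage of its input mean, was 78.4, 154 and 67.4, against 3.41, 1.82 and 11.2 in the pulldowns. TRAP_Snap25 replicate 3 held the most. Among small structured RNAs Rmrp, the RNA of RNase MRP, fell from 29.7, 9.78 and 52.3 CPM to 0.882, 0.279 and 1.42 CPM (-5.23 ± 0.801, edgeR adjusted p = 0.000468). Rn7sk, which holds back transcription elongation, fell 7.93-fold, and Rpph1, the RNA of RNase P, 12.03-fold. Host RNAs of small nucleolar RNAs did not move as one list, with 3 of 11 lower (1 leaving out PreIP_Snap25 replicate 2 or TRAP_Snap25 replicate 2), 0 higher (1 leaving out TRAP_Snap25 replicate 3) and a median log2 fold change of -0.01. The 3 were Snhg5 at -1.91, Snhg14 at -1.17 and Snhg18, which fell from 9.23, 5.70 and 8.603 CPM to 1.47, 0.391 and 1.32 CPM.

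Glial RNA fell in the pulldown but did not vanish. Of 64 tested markers of oligodendrocytes, their precursors, astrocytes and microglia, 57 were lower and 0 higher, with a median log2 fold change of -2.67, and between 54 and 60 were lower without each library. In bulk libraries fewer cells of a type and less RNA per cell cannot be told apart, nor can either be told from less RNA taken up by the pulldown. All 18 oligodendrocyte markers were called in every such subset. Mbp, myelin basic protein, fell from 7249, 5654 and 7880 CPM to 795, 660.5 and 2000 CPM (log2 fold change -2.59 ± 0.467 SE, 3 libraries a side, edgeR adjusted p = 0.00141). The groups did not overlap, and TRAP_Snap25 replicate 3 held the most among the pulldowns. Opalin and Nipal4, both of mature oligodendrocytes, fell 11.0-fold and 8.48-fold.

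Of 11 tested precursor markers 10 were lower. Pdgfra, the growth factor receptor that marks precursors, fell from 20.1, 26.4 and 25.7 CPM to 3.01, 1.28 and 4.98 CPM (-2.99 ± 0.590), and Olig2, a lineage factor, from 73.8, 62.9 and 78.0 CPM to 8.08, 3.18 and 12.1 CPM (-3.22 ± 0.506). The call of Cspg4 was lost in 5 of the 6 subsets. Astrocyte markers were lower for 16 of 19. Gfap, the intermediate filament of astrocytes, fell from 614, 428 and 742 CPM to 80.6, 47.6 and 158 CPM (-2.64 ± 0.375, edgeR adjusted p = 0.000279), and Aqp4, a water channel, fell 5.94-fold. The 3 astrocyte markers that were not called, named after their values were seen, were Aldoc at -0.05 ± 0.277, S100b at -0.56 ± 0.241 and Clu at 0.52 ± 0.277.

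Microglial markers were lower for 13 of 16. C1qa, of complement, fell from 4.07, 1.75 and 5.08 CPM to 0.294, 0.223 and 0.610 CPM (-3.30 ± 0.787), and P2ry12, a receptor of resting microglia, from 10.3, 9.13 and 14.1 CPM to 1.18, 0.558 and 0.915 CPM (-3.67 ± 0.496). Aif1 was at 3.52, 4.79 and 5.996 CPM in the inputs and at 0, 0 and 0.508 CPM in the pulldowns, where it had 0 counts in replicates 1 and 2, which allows up to 0.220 and 0.168 CPM for counting error. The summed levels differed by cell type, and TRAP_Snap25 replicate 3 was the highest of the pulldowns in each. As a percentage of the input mean they were 11.8, 9.16 and 27.3 for oligodendrocytes, 37.6, 44.0 and 58.5 for astrocytes and 12.8, 12.1 and 24.1 for microglia. The inputs spanned 88.2 to 116, 94.1 to 111 and 74.2 to 137 on that scale.

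**Figure D3:**
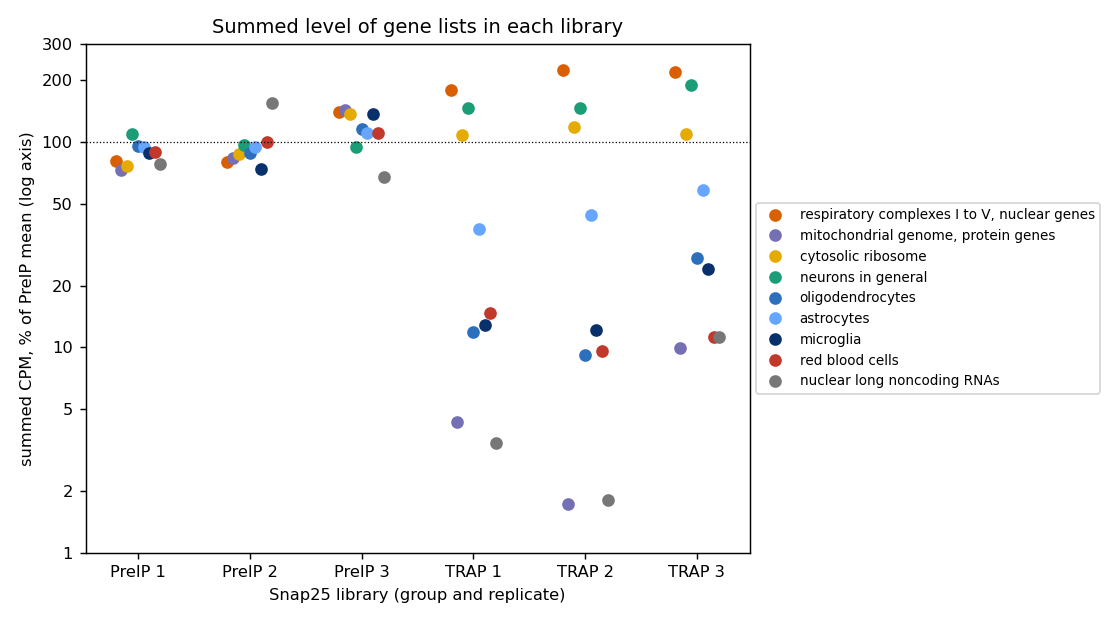
Summed CPM of 9 gene lists in the 6 Snap25 libraries, as a percentage of the mean of the 3 inputs, on a log axis. Each point is a library. Pulldown points lie below the inputs for the glial lists, red blood cells, protein genes of the mitochondrial genome and nuclear RNAs, and TRAP_Snap25 replicate 3 is the highest pulldown in each of these but red blood cells.

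Markers of blood, vessels, meninges, nerve roots and muscle were counted as well. All 5 globin and heme markers of red blood cells were lower, with Hba-a1 going from 50.2, 46.5 and 32.2 CPM to 4.996, 6.70 and 6.61 CPM (-2.82 ± 0.376). Of 16 vessel markers 4 were lower and 0 higher (1 leaving out PreIP_Snap25 replicate 3). Kdr, an endothelial growth factor receptor, fell from 3.08, 1.55 and 1.82 CPM to 0.441, 0.223 and 0.203 CPM (-2.86 ± 0.712, edgeR adjusted p = 0.00959), and Vtn, which pericytes express, fell 6.45-fold. The other two were Cdh5, of endothelial junctions, at -3.12 and Rgs5, of pericytes, at -1.72. Of 10 tested markers of meningeal fibroblasts 6 were lower, among them Ptgds, from 179, 168 and 122 CPM to 14.6, 17.0 and 17.3 CPM, and Col1a1, from 106, 26.4 and 41.5 CPM to 9.77, 9.43 and 5.90 CPM. Of 8 markers of Schwann cells and sensory neurons 2 were lower, among them Prx, of Schwann cells in nerve roots, and neither kept its call in every subset (0 leaving out PreIP_Snap25 replicate 1, 1 leaving out PreIP_Snap25 replicate 3 or TRAP_Snap25 replicate 1 or 2). PreIP_Snap25 replicate 2 held least of that list, with summed levels of 142, 32.8 and 126% of the mean over the inputs. Of 11 tested skeletal muscle markers 1 was higher (0 leaving out PreIP_Snap25 replicate 1 or 2 or TRAP_Snap25 replicate 1) and 0 lower, and their median was -2.35 on the log2 scale. The 1 was Pvalb, which inhibitory neurons express as well, and with it the summed level of the list was 248.6, 188 and 168% of the input mean in the pulldowns. The count of 0 lower muscle markers became 1 with only the 6 Snap25 libraries. It was 6 with the replicate number within each line as a block, and up to 9 in other settings.

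Markers of neurons in general had calls in both directions. Of 25, 5 were higher (3 leaving out PreIP_Snap25 replicate 2) and 3 lower, with a median log2 fold change of 0.59. Their summed level was 146, 147 and 190.2% of the input mean in the pulldowns. TRAP_Snap25 replicate 3, the pulldown with the most glial RNA, thus also had the highest neuronal sum, and the part of either in the other was not tested. Stmn3, a regulator of microtubules, rose from 469.9, 268 and 441 CPM to 691, 746 and 1141 CPM (log2 fold change 1.13 ± 0.267 SE, 3 libraries a side, edgeR adjusted p = 0.00711). Thy1, a surface protein of projection neurons, rose 2.19-fold, with adjusted p of 0.125 with PreIP_Snap25 replicate 2 left out, 0.0576 with PreIP_Snap25 replicate 3 left out and 0.147 with TRAP_Snap25 replicate 3 left out. Syt1, the calcium sensor of vesicle release, stood at 87.7, 112 and 78.2 CPM and 103, 106 and 53.3 CPM, and the groups overlapped. The other higher genes were Vsnl1 at 1.59, Uchl1 at 1.05 and Stmn2 at 0.84. Celf4, an RNA-binding protein of neurons, fell from 256.2, 338 and 193 CPM to 126, 82.9 and 109.6 CPM (-1.30 ± 0.269). The other lower genes were the long noncoding RNA Meg3 at -2.82 and Elavl3, another RNA-binding protein, at -1.93. Meg3, which is also in the list of nuclear long noncoding RNAs, had overlapping ranges in the groups. Not all 3 lower calls held in every subset. The count was 2 leaving out PreIP_Snap25 replicate 1 or 2 or TRAP_Snap25 replicate 1 or 2.

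Markers of the transmitter classes gave different counts. Of 20 motor neuron markers 12 were higher and 0 lower, with a median log2 fold change of 1.14, and 5 were higher without PreIP_Snap25 replicate 2. The homeodomain factor Isl2 rose from 1.76, 0.777 and 0.652 CPM to 3.31, 5.75 and 4.17 CPM (2.04 ± 0.509), with an adjusted p of 0.0517 with PreIP_Snap25 replicate 2 left out. Slc18a3, the vesicular acetylcholine transporter, stood at 65.1, 22.9 and 64.0 CPM and 74.2, 35.4 and 222 CPM, with overlap. Of 17 inhibitory markers 2 were higher (1 leaving out PreIP_Snap25 replicate 1 or 2 or TRAP_Snap25 replicate 1) and 1 lower (2 leaving out PreIP_Snap25 replicate 3 or TRAP_Snap25 replicate 2, 0 leaving out TRAP_Snap25 replicate 1). Calb2, the calcium buffer calretinin, rose from 162, 116 and 153 CPM to 265, 317 and 304 CPM (1.04 ± 0.228, edgeR adjusted p = 0.00461). Pvalb, the buffer parvalbumin, rose 2.41-fold, with adjusted p of 0.0623 with PreIP_Snap25 replicate 1 left out, 0.0761 with PreIP_Snap25 replicate 2 left out and 0.0531 with TRAP_Snap25 replicate 1 left out. Gad1 and Gad2, which make GABA, did not pass the threshold, at 0.25 ± 0.224 and -0.29 ± 0.219.

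Of 18 tested glutamatergic markers 4 were higher (2 leaving out PreIP_Snap25 replicate 1 or 2 or TRAP_Snap25 replicate 2) and 1 lower. The list did not move as one: 8 of these markers changed upward and 10 downward, and the middle of their changes was -0.06 on the log2 scale. All pulldowns lay above all inputs for 4 of the markers and below them for 5. The peptide genes Cck and Sst led the 4 higher genes. Cck rose from 65.1, 56.8 and 100.3 CPM to 161, 153 and 346 CPM (1.57 ± 0.309) and Sst from 186, 279 and 282 CPM to 464, 504 and 1037 CPM (1.42 ± 0.297), in both with the highest value in TRAP_Snap25 replicate 3. Slc17a6, the main vesicular glutamate transporter of the cord, rose 1.70-fold, a call that was kept only without TRAP_Snap25 replicate 3, and Tac1, the precursor of substance P, was the fourth gene at 0.95. Zfhx3, a large homeodomain factor of long-range neurons, fell from 144, 97.4 and 80.2 CPM to 56.0, 42.4 and 48.5 CPM (-1.13 ± 0.249). Of 20 peptides and receptors of the dorsal horn 5 were higher and 0 lower. Penk, the precursor of enkephalins, rose from 133, 130.1 and 153 CPM to 227, 276 and 375 CPM (1.08 ± 0.233, edgeR adjusted p = 0.00436), and Cartpt from 7.80, 7.12 and 17.7 CPM to 28.6, 46.0 and 35.0 CPM (1.75 ± 0.323). The others were Tacr1, the receptor of substance P, at 1.09, Oprl1, the nociceptin receptor, at 1.03 and Nxph1 at 0.83.

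Factors of ventral interneurons and Hox genes, which place cells along the cord, were mixed. Of 22 tested ventral factors 1 was higher (0 leaving out PreIP_Snap25 replicate 1, 2 or 3 or TRAP_Snap25 replicate 1, 2 or 3) and 4 were lower (2 leaving out PreIP_Snap25 replicate 2). Nfix, which glia express too, fell from 227, 159 and 126 CPM to 24.8, 24.9 and 47.0 CPM (-2.41 ± 0.292), Nfib was at -1.44, and the falls of Sox21 at -1.94 and Onecut2 at -1.84 did not keep their calls in every subset. All 31 listed Hox genes were tested, and 4 were higher (2 leaving out PreIP_Snap25 replicate 2 or 3 or TRAP_Snap25 replicate 1) and 1 lower (2 leaving out TRAP_Snap25 replicate 3). The 4 were Hoxc10 at 1.18, Hoxb5 at 1.07, Hoxa9 at 0.75 and Hoxd9 at 0.75. Hoxd1 was the 1 called lower, going from 6.38, 4.66 and 6.65 CPM to 0.661, 0.670 and 1.63 CPM (-2.60 ± 0.616). Immediate early genes, which neuronal activity induces, had 0 of 22 higher (1 leaving out TRAP_Snap25 replicate 1) and 2 lower, Egr2 and Atf3 (0 leaving out PreIP_Snap25 replicate 1 or TRAP_Snap25 replicate 1 or 2, 1 leaving out PreIP_Snap25 replicate 2 or 3).

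At the synapse the direction differed between members. Of 38 genes of the vesicle and its release 12 were higher and 4 lower (6 leaving out PreIP_Snap25 replicate 2, 7 leaving out PreIP_Snap25 replicate 3 among the higher). Vamp1, the vesicle SNARE of fast spinal neurons, rose from 1170, 1243 and 1260 CPM to 2977, 3409 and 3786 CPM (log2 fold change 1.47 ± 0.230 SE, 3 libraries a side, edgeR adjusted p = 0.000536). Cplx1, a clamp on the SNARE complex, rose from 1519, 1014 and 1265 CPM to 2753, 3573 and 3607 CPM (1.39 ± 0.245), and Sv2b, a vesicle membrane protein, 2.71-fold. The 4 lower genes were Cplx2, at -0.85, and 3 scaffolds of the active zone, with log2 fold changes of -1.27 ± 0.357 for Pclo, -1.06 ± 0.252 for Bsn and -1.06 ± 0.286 for Rims2. None of these scaffolds kept its call in every subset, with adjusted p of 0.0688 with PreIP_Snap25 replicate 1 left out and 0.079 with PreIP_Snap25 replicate 2 left out for Pclo, 0.0501 with PreIP_Snap25 replicate 1 left out for Bsn, and 0.074 with PreIP_Snap25 replicate 2 left out and 0.0603 with TRAP_Snap25 replicate 1 left out for Rims2. The count of 4 lower genes became 1 leaving out PreIP_Snap25 replicate 1 or 2, 2 leaving out TRAP_Snap25 replicate 1. The scaffolds have 5068, 3942 and 1572 codons and Cplx2 has 134, while the median of the 12 higher genes was 224, and the part of coding length in these calls was not tested.

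Counts differed between the families of receptors and channels. Of 19 GABA and glycine receptor genes 6 were higher (2 leaving out PreIP_Snap25 replicate 1 or 2 or TRAP_Snap25 replicate 2, 3 leaving out TRAP_Snap25 replicate 1) and 1 lower (0 leaving out TRAP_Snap25 replicate 2). Glrb, the subunit that anchors glycine receptors to gephyrin, rose from 129, 102 and 109 CPM to 355, 269 and 196 CPM (1.27 ± 0.283, edgeR adjusted p = 0.0051). The 1 lower gene was Glra4, a glycine receptor subunit, at -4.80. The calls of Glra2 and Gabra5 did not hold in every subset. Of 25 glutamate receptor genes 0 were higher and 3 lower, Grin2c, Grin2b and Gria1, and none of these kept its call in every subset (1 leaving out PreIP_Snap25 replicate 1 or 3 or TRAP_Snap25 replicate 1 or 2, 0 leaving out PreIP_Snap25 replicate 2). Of 40 potassium channel genes 3 were higher (0 leaving out PreIP_Snap25 replicate 1, 1 leaving out PreIP_Snap25 replicate 3, 6 leaving out TRAP_Snap25 replicate 3) and 2 lower. The 3 were Kcnip1 at 0.93, Kcna6 at 0.89 and Kcnc2 at 0.85. The lower genes were Kcnj10 and Kcnj16, inward rectifiers that glia use to buffer potassium: Kcnj10 fell from 396, 430.1 and 499 CPM to 64.7, 34.5 and 80.8 CPM (-2.88 ± 0.376) and Kcnj16 from 11.8, 23.5 and 37.7 CPM to 5.73, 3.07 and 7.42 CPM (-2.18 ± 0.517). Of 27 sodium and calcium channel genes 6 were higher and 1 lower (0 leaving out PreIP_Snap25 replicate 1 or 2, 2 leaving out TRAP_Snap25 replicate 3). Scn2b, a sodium channel beta subunit, rose 2.22-fold, from 154, 121 and 101 CPM to 272, 244 and 316 CPM. Cacng2, a subunit known from its work on AMPA receptors, was the 1 lower gene at -1.22.

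Part of the genes of peptide packaging and of organelle acidification rose. Granins are acidic proteins of dense-core vesicles, in which prohormones are cut to peptides. Of 13 genes of this route 6 were higher (3 leaving out PreIP_Snap25 replicate 1 or TRAP_Snap25 replicate 2) and 0 lower. Pcsk1n, an inhibitor of prohormone convertase, rose from 317, 191 and 281 CPM to 495, 453 and 819 CPM (1.16 ± 0.276), and Resp18 from 57.7, 55.9 and 115 CPM to 214, 260.0 and 207 CPM (1.58 ± 0.284, edgeR adjusted p = 0.00141). The vacuolar ATPase pumps protons into vesicles and lysosomes, and 11 of its 17 genes were higher and 1 lower (7 leaving out PreIP_Snap25 replicate 1, 6 leaving out PreIP_Snap25 replicate 2 among the higher). Atp6v1g2, the neuronal G subunit, rose from 759, 648 and 661 CPM to 1767, 2390 and 1882 CPM (1.55 ± 0.237), while Atp6v0e, whose partner gene Atp6v0e2 is the neuronal one, fell 2.86-fold, a call lost without PreIP_Snap25 replicate 3 (adjusted p = 0.0551).

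In the lists of protein breakdown and transport part of the members were called. Of 36 proteasome genes 12 were higher and 0 lower, with a median log2 fold change of 0.59, but only 3 leaving out PreIP_Snap25 replicate 1, 2 leaving out PreIP_Snap25 replicate 2 or TRAP_Snap25 replicate 2. Psma1, an alpha ring subunit, rose from 25.4, 27.7 and 39.6 CPM to 67.6, 66.3 and 55.9 CPM (1.03 ± 0.231). Of 31 autophagy genes 6 were higher and 2 lower (1 leaving out PreIP_Snap25 replicate 2 or TRAP_Snap25 replicate 2). Sqstm1, a receptor for cargo, rose from 186, 131 and 198 CPM to 419, 315 and 442 CPM (1.19 ± 0.239) and Map1lc3a 2.29-fold, while Wipi1 fell from 29.2, 33.99 and 26.5 CPM to 8.45, 11.3 and 10.4 CPM (-1.57 ± 0.246) and Atg4a was at -3.20. Of 30 motor genes 7 were higher (3 leaving out PreIP_Snap25 replicate 1, 2 leaving out PreIP_Snap25 replicate 2) and 1 lower (0 leaving out PreIP_Snap25 replicate 1 or 2 or TRAP_Snap25 replicate 2, 2 leaving out TRAP_Snap25 replicate 3), with the dynein light chains Dynll2 and Dynlrb1 at 2.29-fold and 2.20-fold, Dynll2 with an adjusted p of 0.0543 with TRAP_Snap25 replicate 2 left out. Kif1c, a kinesin, was the 1 lower gene at -1.87. Of 32 chaperone genes 4 were higher (2 leaving out PreIP_Snap25 replicate 1 or 2 or TRAP_Snap25 replicate 2) and 1 lower. Hspb1, a small heat shock protein, rose from 6.38, 7.25 and 7.56 CPM to 11.0, 16.3 and 23.3 CPM (1.25 ± 0.277), and Hspa2 fell 4.28-fold. The other higher genes were the co-chaperones Dnajb1 at 0.96, Stip1 at 0.94 and Dnajc5, of synaptic vesicles, at 0.71. Against the 9.69% of all tested genes, the share called higher was 33.3% for the proteasome, 23.3% for motors, 19.4% for autophagy and 12.5% for chaperones, which is near it. Other lists near it were inhibitory markers at 11.8%, Hox genes at 12.9%, proteins of splicing at 9.76% and skeletal muscle markers at 9.09%. Initiation and elongation factors at 8.33% and potassium channel genes at 7.5% were near it as well. The share called lower was 12.7% of all tested genes. It was no larger for glutamate receptors, for vesicle and release genes at 10.5%, immediate early genes at 9.09% and proteins of splicing at 7.32%.

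In the translation machinery 1.28% of cytosolic ribosome genes and 8.33% of initiation and elongation factors were called higher. Among aminoacyl-tRNA synthetases the share was 18.2%, against 9.69% of all tested genes. Of 78 tested genes of the cytosolic ribosome 1 was higher and 1 lower, with a median log2 fold change of 0.16. Their median coding length was 152 codons. Their summed level was 108, 119 and 109% of the input mean in the pulldowns, within the inputs' own span of 76.7 to 136. The count of 1 higher gene became 0 leaving out PreIP_Snap25 replicate 1 or 2 or TRAP_Snap25 replicate 1 or 2, 5 leaving out PreIP_Snap25 replicate 3, 2 leaving out TRAP_Snap25 replicate 3. The 2 called genes were Rpl15 at 1.08 ± 0.359 and Rpl10 at -2.13 ± 0.618. The Rpl15 call was lost without each library, that of Rpl10 without PreIP_Snap25 replicate 2 (adjusted p = 0.0876) and without TRAP_Snap25 replicate 2 (0.0651), and both genes have many processed copies that can take reads. Of 48 initiation and elongation factors 4 were higher (2 leaving out PreIP_Snap25 replicate 1 or 2 or TRAP_Snap25 replicate 2, 9 leaving out TRAP_Snap25 replicate 3) and 2 lower (1 leaving out PreIP_Snap25 replicate 2). Pabpc1, the main cytoplasmic poly(A)-binding protein, fell from 147, 135 and 84.6 CPM to 48.8, 44.9 and 49.0 CPM (-1.36 ± 0.245, edgeR adjusted p = 0.00139). The other lower gene was Eif3a at -1.02, and the higher ones were Eif2b4 at 0.99, Eif5a at 0.90, Eif1b at 0.88 and Eif4a2 at 0.87. Of 22 aminoacyl-tRNA synthetases 4 were higher (1 leaving out PreIP_Snap25 replicate 1 or 2 or TRAP_Snap25 replicate 2) and 0 lower, namely Farsb at 0.93, Hars at 0.78, Kars at 0.72 and Gars at 0.72.

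Many chromatin modifiers fell. Of 47 genes for enzymes and remodellers of chromatin 0 were higher (1 leaving out PreIP_Snap25 replicate 3 or TRAP_Snap25 replicate 1) and 22 lower, with a median log2 fold change of -0.79, and between 15 and 23 were lower without each library. Kmt2d, a histone H3 methyltransferase, fell from 232, 154 and 142 CPM to 32.8, 7.98 and 43.1 CPM (log2 fold change -2.66 ± 0.431 SE, 3 libraries a side, edgeR adjusted p = 0.000685). Chd7, a remodeller, fell from 25.3, 39.8 and 19.4 CPM to 5.73, 2.79 and 2.95 CPM (-2.88 ± 0.431), and Ezh2, the methyltransferase of Polycomb, from 6.05, 12.04 and 6.91 CPM to 0.808, 0.670 and 1.22 CPM (-3.23 ± 0.562). Their median coding length was 1872 codons. Glial RNA fell in the same libraries, and its part in these falls was not tested. Proteins of splicing stayed near the middle, with 4 of 41 higher (1 leaving out PreIP_Snap25 replicate 1, 2 leaving out PreIP_Snap25 replicate 2 or TRAP_Snap25 replicate 2), 3 lower (0 leaving out PreIP_Snap25 replicate 1 or 2, 1 leaving out TRAP_Snap25 replicate 1 or 2) and a median log2 fold change of -0.03. Prpf19 rose from 214, 189 and 160.1 CPM to 360.0, 525 and 569 CPM. The others were Snrpd1 at 1.01, Snrpd3 at 0.81 and Prpf8 at 0.79 among the higher, and Srsf11 at -0.97, Snrnp70 at -0.96 and Srsf6 at -0.81 among the lower. Of 19 genes of cholesterol synthesis 0 were higher and 3 lower, Lss, Hmgcs1 and Cyp51 (5 leaving out PreIP_Snap25 replicate 2, 9 leaving out TRAP_Snap25 replicate 3). The share called lower was 15.8%, near the 12.7% of all tested genes. Hmgcs1, an early enzyme, fell from 447, 338 and 542 CPM to 186, 128 and 136 CPM (-1.56 ± 0.254) and Lss, which closes the sterol rings, from 158, 164 and 139 CPM to 35.3, 32.2 and 44.5 CPM (-2.04 ± 0.291).

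Genes with short coding sequences were higher in the pulldown more often than genes with long ones. The median coding length was 290 codons among called rises, 566 among called falls and 490.5 among protein-coding genes that were not called (lengths were found for 99.3% of the 14240 tested). Of genes with 100 to 199 codons 25.3% were higher and 9.07% lower, and of genes with 1500 codons or more 0.833% were higher and 25.5% lower. The median log2 fold change went from 0.55 under 100 codons to -0.65 at 1500 or more. Each pulldown library showed it, with medians of 0.43, 0.42 and 0.30 under 200 codons and of -0.43, -0.55 and -0.66 over 1000, set against the input mean. Without the lists of respiration and translation the median was 0.38 under 100 codons, 0.43 at 100 to 199, which is out of order, and -0.65 at 1500 or more. The Chat line showed the same order, from 0.76 under 100 codons to -0.54 at 1500 or more. Genes are not independent replicates, so no test was made.

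**Figure D4:**
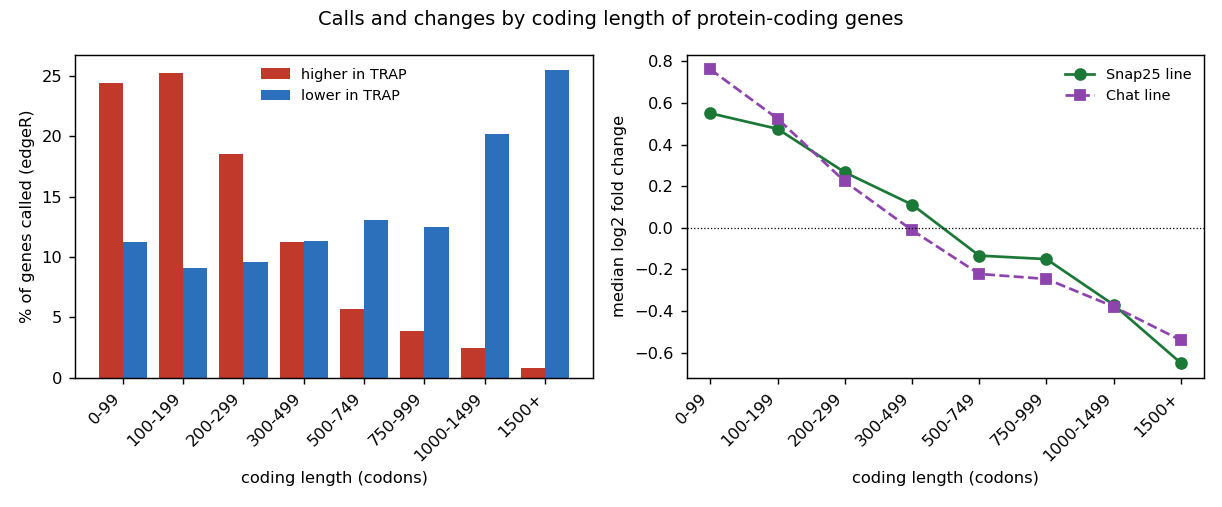
Left, percentage of tested protein-coding genes called higher or lower in the Snap25 pulldown, by coding length in codons. Right, median log2 fold change of each length bin in the Snap25 and Chat lines. Called rises are most frequent under 200 codons, called falls at 1000 codons and more, and the medians of both lines fall from each bin to the next.

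The change from input to pulldown was then compared between the lines, each against its own input. Larger and smaller are signed here: a larger change is a log2 fold change above that of the Chat line, whatever the size of either. A smaller change is one below it. Few genes differed: 70 had a larger change in the Snap25 line (0.44% of 15905) and 96 a smaller one (0.604%), by edgeR's interaction test, and 1833 had an unadjusted p under 0.05. The input libraries weighed on these counts. The larger changes numbered 44, 45 and 38 without PreIP_Snap25 replicate 1, 2 or 3, and 40, 26 and 46 without PreIP_Chat replicate 1, 2 or 3. The smaller changes numbered 53 and 54 without PreIP_Snap25 replicate 1 or 3, 152 without TRAP_Snap25 replicate 3, and 48, 26 and 46 without PreIP_Chat replicate 1, 2 or 3. The differences that passed were spread unevenly over the cell type lists. Of 17 inhibitory markers 7 had a larger change in the Snap25 line (4 leaving out PreIP_Snap25 replicate 3 or PreIP_Chat replicate 2), with medians of 0.25 in the Snap25 line and -1.65 in the Chat line. Of 20 motor neuron markers 8 had a smaller change (3 leaving out PreIP_Chat replicate 2, 5 leaving out PreIP_Chat replicate 3), with medians of 1.14 and 3.01. For the respiratory complexes the medians were 1.10 and 1.08, which is no test of the list.

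Single genes show the size of these differences. Slc17a6 changed by 0.76 on the log2 scale in the Snap25 line and by -1.47 in the Chat line, a difference of 2.23 ± 0.327 (edgeR adjusted p = 0.00551). Gad1 differed by 1.89 ± 0.320 and Pvalb by 2.89 ± 0.484. These 3 differences kept their call without each of the 12 libraries in turn. Chat changed by 0.63 in the Snap25 line, where it did not pass the threshold, and by 2.84 in its own line, a difference of -2.21 ± 0.411 (adjusted p = 0.013, and 0.0589 without PreIP_Chat replicate 2). Its level was 19.6, 14.1 and 14.7 CPM in the Snap25 inputs and 19.98, 26.1 and 28.9 CPM in the pulldowns. The neurofilament genes Nefl and Nefm, structural proteins of thick axons, differed by -1.61 and -1.87, which kept the call in 3 and in 10 of the 12 subsets. Among glial markers only S100b differed past the threshold, by -1.48 ± 0.342, which was kept in 1 of the 12 subsets, without TRAP_Snap25 replicate 3. S100b is also known from motor neurons.

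**Figure D5:**
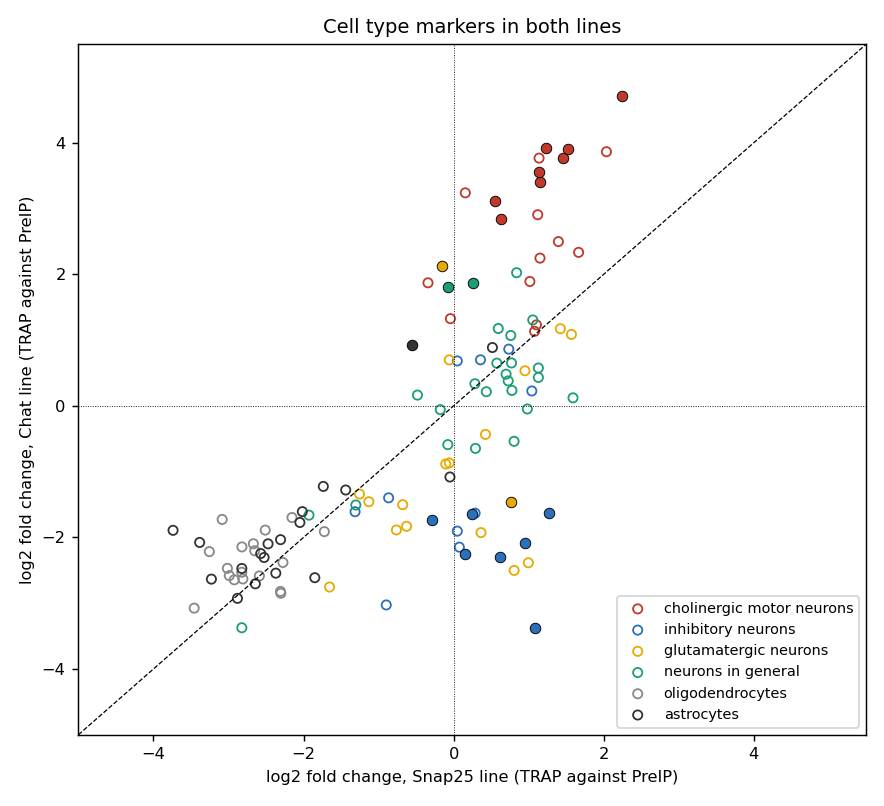
Log2 fold change from input to pulldown in the Snap25 line against that in the Chat line for the cell type markers. Each point is a gene, and filled points differ between the lines at an edgeR adjusted p under 0.05. Most filled motor neuron markers lie on the Chat side, most filled inhibitory markers on the Snap25 side, and most glial markers are low in both.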

How the data were processed

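Libraries came from spinal cord of both lines before and after immunopurification. RNA was taken up in TRIzol, treated with DNase, cleaned on RNeasy columns and amplified (Nugen Ovation RNA-Seq V2), per the labels' protocols. The authors deposited raw counts per gene. The submitters' processing notes name STAR and HTSeq. No version, build, annotation or strand setting is stated in the sources, so reads of overlapping and antisense genes cannot be told apart.

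Of 41736 lines, 824 exact repeats were dropped. Genes were kept by filterByExpr, scaled by TMM and tested with edgeR 4.0.16 (R 4.3.3) quasi-likelihood over 12 libraries with 4 group means, with Benjamini-Hochberg adjustment over 15905 genes. SE is the log2 fold change over the root of F. Counting intervals cover counting error only. limma 3.58.1 and DESeq2 1.42.0 served as alternatives, and the scripts were tested on simulated data.

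The members and lists were chosen with earlier results of these data known. Named genes are Snap25, Rpl10a, the 12 largest rises and 12 largest falls at 5 CPM or more without overlap, the 3 largest rises and falls of each list at 1 CPM or more, the first 2 of each list, and the largest differences between the lines. Not all are printed, and a few genes are not reported here. Coding lengths are the longest coding sequence in GENCODE M21, and promoters are RefSeq's on GRCm38.p6. Same-numbered input and pulldown libraries correlated at -0.037, 0.167 and 0.147 in their deviations from the group means.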

Additional observations from a re-analysis of the deposited data

Results flagged for a closer look

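For 25 named genes the change from input to pulldown differed between the Snap25 and Chat lines by edgeR's interaction test at an adjusted p under 0.05. Of these, 12 kept the call without each of the 12 libraries in turn and 13 lost it without at least 1. No explanation was tested. Values are the Snap25 change minus the Chat change, on the log2 scale, and larger and smaller refer to the sign of that value.

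The change was larger in the Snap25 line for the peptide gene Npy (4.45), Fbxo40 (4.20), Strip2 (3.66), the cholecystokinin receptor Cckbr (3.43), the matrix link protein Hapln1 (3.36), Pvalb (2.89), Slc17a6 (2.23) and Gad1 (1.89), which all kept the call in each of the 12 subsets. Npy stood at 7.37, 7.38 and 12.1 CPM in the Snap25 inputs and 13.2, 30.3 and 13.1 CPM in the pulldowns. For Rpp25 (1.89) 6 subsets kept the call, for Hoxa9 (1.69) 3 and for Gad2 (1.45) 4.

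The change was smaller in the Snap25 line for the chloride channel protein Clic1 (-3.97), S100a11 (-3.52), Hspb1 (-2.48) and the intermediate filament Prph (-2.26), which kept the call in each subset. Clic1 fell in the Snap25 line, from 9.95, 4.53 and 11.7 CPM to 2.06, 2.51 and 1.32 CPM, with a log2 fold change of -2.13 against 1.84 in the Chat line. The call was kept in 11 subsets for Chat (-2.21), in 10 for the kinase Wnk4 (-3.40) and Nefm (-1.87), and in 8 for the synuclein Sncg (-1.82). It was kept in 7 for Pdgfd (-3.08) and Cartpt (-2.22), in 6 for the histone Hist1h2bc (-2.01), in 3 for the peptide gene Uts2 (-2.46) and Nefl (-1.61), and in 1 for S100b (-1.48).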

How the results depend on the processing

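The 1541 higher genes became 890 with only the 6 Snap25 libraries and 675 to 1688 without one library, and the 2017 lower genes 1298 to 2321 without one library, with 2321 without TRAP_Snap25 replicate 3. Among the 675 higher genes without PreIP_Snap25 replicate 2, 672 were among the 1541. Differences between the lines moved more. The 70 larger changes became 209 with DESeq2, 106 with limma voom, 184 with no filter on low counts and 26 to 97 without one library, and the 96 smaller changes 292, 113, 269 and 26 to 152. Leaving out Chat libraries was chosen after seeing the data. The median length of higher genes over that of genes not called was 0.591 by codons and 0.629 by transcript, and of lower genes 1.154 and 1.231.

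Within a line, same-numbered input and pulldown libraries also share a suffix in their descriptions, and Snap25 replicate 1 and Chat replicate 2 share theirs, but no label says what it marks. The correlations given with the methods did not all reach 0.1, so the samples were not taken as paired. With the replicate number within each line as a block, 1544 genes were higher and 2119 lower, with 88 larger and 118 smaller differences between the lines, and it moved none of these counts by over 1.5 times. In the Snap25 line input replicate 3 and pulldown replicate 2 correlated best with their own number, input replicate 2 equally with pulldown replicates 1 and 2 (0.167), and the others with another number. In the Chat line every library correlated best with its own number, at 0.06, 0.102 and 0.127.

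The share of rises among calls was 43.3%, and 40.3% to 48.0% with other scalings, which moved the median over all genes by under 0.1. No named gene reversed its direction past the threshold. Of 219 named genes called, 139 kept the call without each Snap25 library, 219 with DESeq2, 211 with limma voom and 169 of 217 with only the 6 Snap25 libraries. At 10149346 to 20336902 counts, 3 counts, the limit that 0 counts allow, amount to 0.165 to 0.305 CPM.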

Other observations

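Values in this section were chosen after they were seen. Of 5 tested constant regions of antibody genes 2 were higher in the pulldown and 0 lower by edgeR, and the genes below differ among themselves. Ighm, the constant region of IgM heavy chains, was at 126, 67.5 and 122 CPM in the inputs of the Snap25 line and at 379, 345 and 296 CPM in its pulldowns, with no overlap (log2 fold change 1.69 ± 0.295, edgeR adjusted p = 0.00115), and the call held without each of the 6 libraries. Ighg1, of IgG heavy chains, was at 0 in all 3 inputs and at 2.13, 2.34 and 0 CPM in the pulldowns. Igkc, of kappa light chains, was at 0.440, 0.194 and 0.130 CPM and at 2.79, 7.48 and 0 CPM. Pulldown replicate 3 thus held Ighm at its level but neither Ighg1 nor Igkc, where 0 counts allow up to 0.305 CPM. In the Chat line Ighm rose by 2.35 on the log2 scale, and the difference between the lines was -0.66 ± 0.406 (adjusted p = 0.599).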
